A study of Arabidopsis thaliana with 18 samples.

Results

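The spx1,spx2 double mutant of Arabidopsis thaliana was compared with the wild type (WT, accession Col-0) in seedlings grown for 7 days on complete Johnson solid medium, which holds inorganic phosphate (Pi). Each genotype had 3 arrays that the sample titles call biological replicates, chosen by genotype and medium from the 18 arrays of the series. All 22746 probe sets other than the array's own controls entered the comparison, out of 22746 such probe sets in the series. The other 4 groups, also 3 arrays each, are both genotypes grown without Pi and both genotypes given 4 h of complete medium following Pi-free growth ("resupplied"), and they serve here only for comparison. Whole seedlings were used, so a value averages over all tissues, and fewer cells of a type cannot be told apart from less RNA per cell. The labels give the mutant as a double mutant without naming its alleles, and do not say whether seedlings were pooled. SPX1 and SPX2 transcripts were not analysed here, so the loss of both genes was not checked on these arrays.

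SPX proteins carry a domain that binds inositol pyrophosphates, small molecules whose amount follows the Pi status of the plant cell. When Pi is ample, SPX1 and SPX2 are known to bind PHR1, a MYB-type transcription factor, and to keep it from the promoters of Pi starvation genes. When Pi is short, PHR1 is released and raises genes for Pi uptake, Pi recycling and membrane lipid exchange. Complete medium is therefore the condition in which both proteins are known to restrain PHR1, and the comparison asks what differs when a Pi-fed seedling lacks them.

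In all values below, the signal is the deposited log2 signal, a difference is mutant minus WT on that scale, and an error is the standard error (SE) of the difference with 3 arrays per group. The test is limma's moderated test, adjusted by Benjamini-Hochberg across all probe sets, and "passed", "rose", "fell" and "higher" or "lower" in a count refer to an adjusted p under 0.05. Array values are given in the order of replicates 1, 2 and 3.

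A few arrays stood apart. The dap spike-in control, RNA added to each sample before labelling, read 5.57 on WT replicate 3 and 5.55 on mutant replicate 2, against 8.82 to 9.16 on the other 4 arrays. In the other media, mutant replicate 1 without Pi also read low, at 5.26. The alternatives that block or leave out low spike-in arrays cover that array as well. The 25S ribosomal RNA control read 12.68, 12.38 and 11.38 in WT and 11.60, 9.80 and 11.51 in the mutant, so the lowest value was that of mutant replicate 2. The difference between the 3 prime and 5 prime probes of ubiquitin, a sign of RNA quality, overlapped between the genotypes at 1.24 to 1.45 in WT and 1.26 to 1.35 in the mutant. Mutant replicate 1 lay farthest from WT, with correlations of 0.966 to 0.974 with the WT arrays over all probe sets, and mutant replicate 3 nearest, at 0.980 to 0.987. The leaf genes RCA, LHCB4.1, PRK and SBPASE, which act in photosynthesis, averaged 13.10 to 13.36 over the WT arrays and 12.91 to 13.11 over the mutant arrays, and EXPA7 and EXPA18, expansins of root hairs, averaged 6.69 to 7.32 and 7.06 to 7.72. Of these 6 genes only SBPASE passed, at -0.40 ± 0.11. The 2 root hair genes both passed without mutant replicate 3, and 1 of them did without the low spike-in arrays.

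The double mutant differed from WT at 4146 of the 22746 probe sets (18.2%), of which 2293 were higher (10.1%) and 1853 lower (8.15%). The rises were the larger changes. At 2-fold or more, 624 probe sets were higher (2.74%) and 110 lower (0.484%), at 4-fold or more 138 and 13, and at 8-fold or more 35 and 2. The median difference was 0.69 over the probe sets called higher and -0.49 over those called lower, while it was -0.06 over all probe sets. Without mutant replicate 1 the count of 4146 was 2370, and with only the 6 arrays in the fit it was 1525. Of the called probe sets 55.3% were higher, and 41.7% were when each array was centred on its median, so the balance of small rises and falls depends on the scaling.

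A single gene is named for 13513 of the probe sets, which hold 2179 of the calls, 1135 higher and 1044 lower. Among them are 279 of the 624 probe sets at least 2-fold higher and 57 of the 110 at least 2-fold lower. Probe sets with no single gene reached 5.91 and -2.73.

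Of the 734 probe sets past 2-fold (3.23%), 723 had no overlap between the 3 mutant and the 3 WT arrays, which mostly follows from their choice on these arrays (25.6% of all probe sets had none). The mutant arrays were spread among themselves. Over the 624 higher probe sets the median distance from the WT mean was 1.74, 1.4 and 1.25 on mutant replicates 1, 2 and 3, and replicate 1 was the farthest of the 3 mutant arrays at 512 of them. Over the 110 lower ones it was -1.73, -1.17 and -0.97, with replicate 1 farthest at 96. The WT arrays differed by far less, with medians between -0.04 and 0.09. Within the pair of arrays with the low spike-in, all 624 and all 110 probe sets kept their direction, with medians of 1.45 and -1.17. Within the other 4 arrays all kept it too, with medians of 1.46 and -1.32. The probe sets were chosen on these same 6 arrays, so their direction within either set was largely fixed in advance, and these values describe the arrays without testing the part of the spike-in difference.

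**Figure D1:**
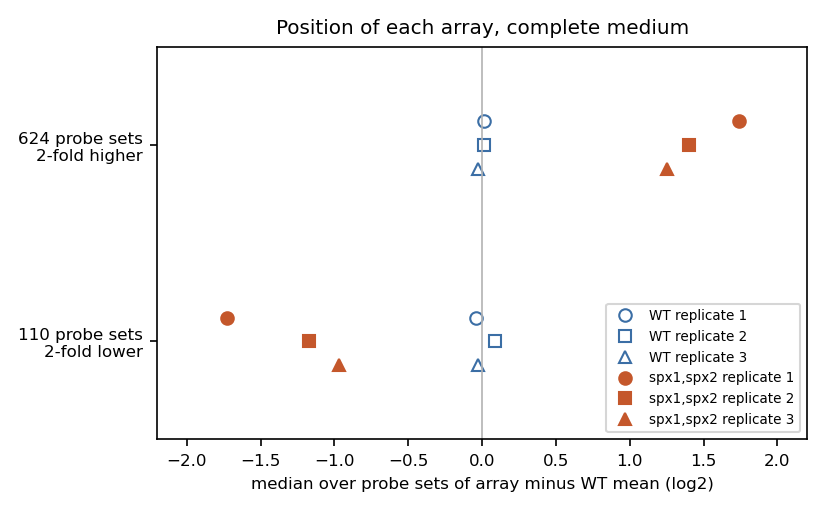
Position of each of the 6 arrays in complete medium, as the median over probe sets of the array's signal minus the WT mean (x axis, log2), for the 624 probe sets at least 2-fold higher and the 110 at least 2-fold lower in the mutant. Open symbols are WT and filled symbols mutant; mutant replicate 1 lies at 1.74 and -1.73, replicate 3 at 1.25 and -0.97, and all WT medians lie between -0.04 and 0.09.

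The genes with known links to Pi come first. A list of 73 such genes, among them the Pi transporters, the SPX family and the lipid remodelling enzymes, had 17 members with a probe set named here. Of the 17, 9 were higher and none lower, and 8 did not pass. Their median difference was 0.55, against -0.06 over all probe sets, beside a background of 10.1% higher. The count of 9 was 4 with only the 6 arrays in the fit. This list and those below were chosen with earlier results of these data known. Their shares beside those of all probe sets are therefore descriptive.

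2 Pi starvation reporter genes stood far above the rest of the list. AT5G20790 read 4.93, 5.49 and 5.04 in WT and 8.29, 7.91 and 8.29 in the mutant, a difference of 3.01 ± 0.16 (adjusted p = 2.57e-10). AT2G04460 read 4.74, 4.94 and 5.12 in WT and 7.99, 7.94 and 8.22 in the mutant, a difference of 3.12 ± 0.14 (adjusted p = 2.22e-11). In both genes every mutant array lay above every WT array, and the 3 mutant arrays lay close together, unlike the spread of replicates seen over all 624 probe sets. Both remained below their starved level: WT arrays without Pi read 12.73 to 13.12 for AT5G20790 and 9.45 to 9.68 for AT2G04460.

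The third reporter, AT5G17340, was near the floor in both genotypes, at 3.27, 3.60 and 3.69 in WT and 3.53, 3.90 and 3.69 in the mutant. Its difference of 0.19 ± 0.22 did not pass (adjusted p = 0.597). The genotypes overlapped. Of the 3 starvation reporters, 2 thus passed in the Pi-fed mutant, and the difference among the genes was not tested.

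OCT1, an organic cation transporter gene, read 4.30, 4.64 and 4.74 in WT and 4.94, 5.37 and 5.24 in the mutant, and rose by 0.62 ± 0.15 (adjusted p = 0.00556). All mutant arrays were above all WT arrays, but the step was small beside the levels of 11.63 to 11.96 in WT without Pi. AT1G63010, listed with Pi transport, rose by 0.55 ± 0.12 (adjusted p = 0.00422).

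The multicopper oxidases LPR1 and LPR2 are known to slow root growth when roots meet low Pi. LPR2 read 8.16, 7.91 and 7.13 in WT and 8.85, 8.48 and 8.60 in the mutant, a rise of 0.91 ± 0.18 (adjusted p = 0.0013). LPR1 read 5.58, 5.02 and 5.23 against 6.36, 5.78 and 6.0, a rise of 0.77 ± 0.15 (adjusted p = 0.0011). Neither gene overlapped between the genotypes. WRKY6, a transcription factor known to repress the Pi exporter gene PHO1, rose by 1.07 ± 0.16 (adjusted p = 0.000114). In WT, growth without Pi against complete medium gave 1.58 for WRKY6, which passed. LPR2 (0.26) and LPR1 (0.24) did not pass there.

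AT1G73600, which encodes a phosphoethanolamine methyltransferase on the route to phosphocholine, read 9.79, 9.68 and 9.18 in WT and 10.60, 9.99 and 10.16 in the mutant. It rose by 0.70 ± 0.21 (adjusted p = 0.0267), and the arrays did not overlap. In WT it was far lower without Pi, with a mean of 5.27, so the Pi-fed mutant moved away from the starved level for this gene. AT1G25550, a gene of the list shared with nitrate signalling, rose by 0.58 ± 0.12 (adjusted p = 0.00153), while 2 others of that list, AT3G25790 (0.28 ± 0.19) and AT1G68670 (0.27 ± 0.10), did not pass.

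The remaining measured members gave small differences. AT5G09570 was at 0.30 ± 0.16, SAL2 at 0.04 ± 0.12 and PAP20, a purple acid phosphatase gene, at -0.10 ± 0.14. SIZ1, a SUMO ligase gene that acts on PHR1, was at -0.02 ± 0.15, and its second probe set at -0.15. AT5G15070 was at -0.12 ± 0.13. In WT, growth without Pi against complete medium gave 5.41 for AT5G09570, 3.41 for SAL2, 2.55 for AT5G15070 and 1.57 for PAP20. SIZ1 was at 0.02 there and did not pass. Small differences in the Pi-fed mutant thus include genes that starvation raised strongly in WT.

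Genes of cold and dehydration protection held the largest changes. Of 35 listed genes 8 were measured, and all 8 were at least 2-fold higher (2.74% of all probe sets were), with a median difference of 3.38. COR15A, a chloroplast protein known to protect membranes during freezing, read 5.36, 6.04 and 6.46 in WT and 11.66, 11.08 and 10.40 in the mutant. That is a rise of 5.10 ± 0.27, or 34.3-fold (adjusted p = 2.34e-10), the largest among genes named here. COR15B, its close relative, rose by 3.89 ± 0.23, or 14.8-fold, from 5.47, 6.01 and 5.98 to 10.22, 9.89 and 9.02. In both genes mutant replicate 3 was the lowest mutant array, still at least 3 log2 units above every WT array.

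LTI30, a dehydrin gene, read 8.59, 8.62 and 8.65 in WT and 12.61, 12.05 and 11.48 in the mutant, a rise of 3.43 ± 0.18. COR47, another dehydrin gene, rose by 1.11 ± 0.16 from a bright level of 11.30 to 11.41. AT4G30650 and AT4G30660, also on the list, rose by 3.33 ± 0.16 and 1.48 ± 0.17.

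COR27 is a cold-induced gene that is also known as a regulator of the circadian clock. It read 3.06, 3.43 and 3.87 in WT and 6.83, 7.04 and 7.51 in the mutant, a rise of 3.67 ± 0.18, and AT4G33980, listed beside it, rose by 2.13 ± 0.17. COR27 was highest on mutant replicate 3, where COR15A was lowest. GI, a clock gene that also acts in flowering and cold responses, rose by 0.98 ± 0.12 (adjusted p = 1.16e-05), from 7.93, 7.80 and 7.76 to 9.09, 8.82 and 8.52. These are the 3 measured members of the clock list, and the hour of harvest is not given in the labels.

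**Figure D2:**
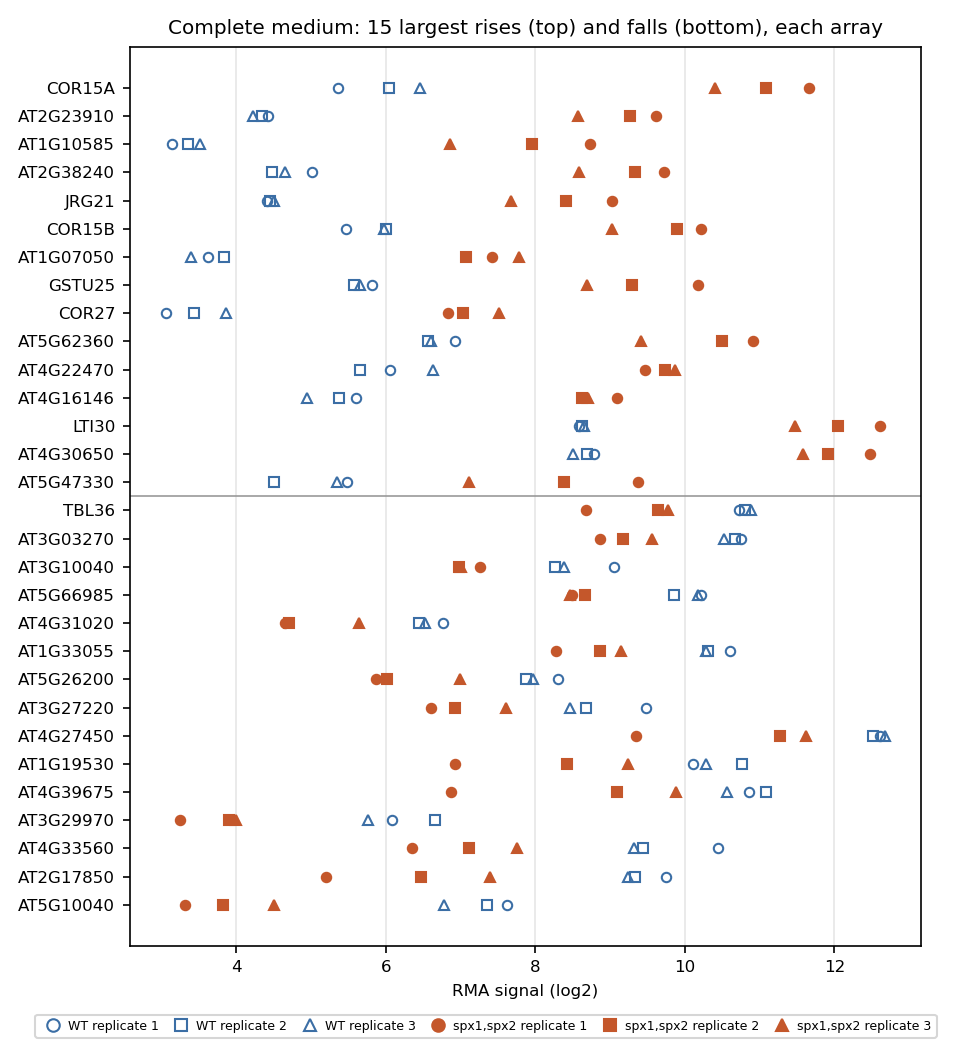
RMA signal (x axis, log2) of the 15 named genes with the largest rise and the 15 with the largest fall, with open symbols for the 3 WT arrays and filled symbols for the 3 mutant arrays. No gene overlaps between the genotypes, as the rule for naming them required; mutant replicate 3 is the lowest mutant array in 11 of the 15 rises and the highest in 13 of the 15 falls.

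Jasmonate is a wound and defence hormone whose level is set by synthesis and by oxidation. Of 47 listed genes 12 were measured, 9 higher and 1 lower (10.1% and 8.15% over all probe sets), with a median of 1.33. AT2G38240 and JRG21 are jasmonate-related oxygenase genes. AT2G38240 read 5.02, 4.48 and 4.65 in WT and 9.72, 9.33 and 8.58 in the mutant, a rise of 4.49 ± 0.29 or 22.5-fold (adjusted p = 2.79e-09). JRG21 read 4.41, 4.45 and 4.5 against 9.03, 8.41 and 7.67, a rise of 3.92 ± 0.31 or 15.1-fold, and AT5G05600, from the same part of the list, rose by 2.69 ± 0.21. The fourth measured member of that part, AT3G11180, was at -0.02 and did not pass. Every mutant array was at least 3 log2 units above every WT array for both of these oxygenases.

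AT1G10585, a bHLH factor, read 3.14, 3.35 and 3.52 in WT, which is dim, and 8.73, 7.95 and 6.86 in the mutant, a rise of 4.51 ± 0.30 (adjusted p = 4.46e-09). Of the synthesis genes, OPCL1, a peroxisomal CoA ligase, rose by 1.15 ± 0.20. JMT, which makes methyl jasmonate, rose by 0.79 ± 0.26 (adjusted p = 0.0388), but its arrays overlapped, with mutant replicate 3 at 3.68 and 2 WT arrays at 3.70.

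Defence outputs of the hormone did not move one way. The defensin gene PDF1.2 rose from 6.34, 6.22 and 6.43 to 7.68, 7.83 and 8.15 (1.55 ± 0.12), and PDF1.2b by 1.52 ± 0.32, but these are near-identical copies whose signals may mix. THI2.2, a thionin gene, fell from 7.32, 8.07 and 8.17 to 6.58, 7.00 and 6.88 (-1.03 ± 0.18, adjusted p = 0.000341), while THI2.1 was at 0.40 and did not pass. BSMT1, which methylates salicylic and benzoic acid, rose by 0.43, but it was dim in both genotypes, at 3.03 to 3.64.

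Genes listed with the decoration of flavonoids rose together. Of 39 flavonoid and anthocyanin genes 9 were measured, 7 higher and none lower, with a median of 1.17, beside 10.1% higher and 8.15% lower over all probe sets. All 6 measured genes listed with decoration rose, and of 3 genes of the core pathway 1 did. The 6 include UGT84A1, a glucosyltransferase of hydroxycinnamic acids. It read 4.81, 4.5 and 5.20 in WT and 8.10, 7.46 and 6.89 in the mutant, a rise of 2.64 ± 0.21 (adjusted p = 5.04e-08). UGT78D2 and UGT78D1, which act on flavonols, rose by 1.48 ± 0.18 and 1.06 ± 0.16.

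AT4G14090 rose by 1.37 ± 0.19, the xylosyltransferase gene UF3GT by 1.17 ± 0.18 and AT5MAT, which adds malonyl groups to anthocyanins, by 0.75 ± 0.20. CHIL, a chalcone isomerase-like protein that helps the first step of the pathway, rose by 1.83 ± 0.19, from 8.13, 7.98 and 8.16 to 10.50, 9.94 and 9.32. DFR, a core enzyme on the way to anthocyanins, read 8.51, 8.75 and 8.65 against 8.37, 8.5 and 8.53 and did not pass (-0.17 ± 0.18, adjusted p = 0.56). BAN was at -0.30 and did not pass either. In all 7 genes that rose, mutant replicate 1 was the farthest from WT.

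The wider UDP-glycosyltransferase (UGT) family, enzymes that move sugars onto small molecules, had 47 measured members, of which 17 rose and none fell, against 10.1% and 8.15% of all probe sets. The 30 others did not pass, and the family median was 0.22. UGT84A3 rose by 1.85 ± 0.12 and UGT73B4 by 1.44 ± 0.22, and 3 of the 17 are counted above with the flavonoid list. UGT73B4 and UGT73B5 (1.04 ± 0.21) are close neighbours in sequence, so their signals may not be independent. Mutant replicate 1 was farthest from WT at 16 of the 17.

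Genes of detoxification and stress signalling gave large rises in single members. The family counts stand beside 10.1% higher and 8.15% lower over all probe sets. GSTU25, a tau-class glutathione transferase, read 5.81, 5.58 and 5.65 in WT and 10.17, 9.29 and 8.69 in the mutant, a rise of 3.70 ± 0.23 (adjusted p = 1.55e-09). GSTU22 rose by 2.13 ± 0.19 and GSTU26 by 0.89 ± 0.20, GSTL3 fell by 0.30, and the other 9 of 13 did not pass, with a family median of -0.02. The glutaredoxin gene GRX480, which links salicylic acid and jasmonate signals, rose by 1.93 ± 0.19, from 4.79, 5.34 and 5.43 to 7.40, 7.05 and 6.89. Of 5 measured glutaredoxins GRXC2 also rose, by 0.47 ± 0.09.

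WRKY53, a factor of leaf senescence and defence, read 6.52, 6.30 and 6.07 in WT and 8.49, 8.37 and 8.03 in the mutant, a rise of 2.01 ± 0.16 (adjusted p = 3.54e-08). With WRKY6 and WRKY47 (0.47 ± 0.13) it made 3 of 6 measured WRKY genes that rose, beside 10.1% of all probe sets. The U-box ubiquitin ligases PUB22, PUB23 and PUB24 dampen immune signalling, and rose by 1.01 ± 0.16, 1.05 ± 0.16 and 0.58 ± 0.19. They were 3 of 9 measured, beside the same 10.1%.

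Calmodulin-like genes split. CML41 rose by 1.27 ± 0.19 and CML37 by 0.64 ± 0.18, while CML38 fell from 8.5, 7.82 and 7.91 to 7.05, 6.83 and 7.12 (-1.07 ± 0.18) and CML30 fell by 0.52. CML37 was dim in both genotypes, at 3.17 to 3.94. The heat shock gene Hsp70-2 rose by 1.12 ± 0.15, and BZIP60, a factor of the unfolded protein response, by 0.62 ± 0.15, while its relatives BZIP17 and BZIP28 did not pass.

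The starch genes APL3 and APL4, which encode large subunits of ADP-glucose pyrophosphorylase, rose by 1.3 ± 0.25 and 0.66 ± 0.20. DPE1 and the sugar exporter gene SWEET11 were at 0.34 and 0.05 and did not pass.

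The falls were led by genes that low oxygen is known to induce. Of 41 such genes 21 were measured, 18 lower and 1 higher, with a median of -1.48, against a background of 8.15% lower. AT5G10040 read 7.62, 7.35 and 6.78 in WT and 3.31, 3.83 and 4.5 in the mutant, a fall of 10.4-fold (-3.37 ± 0.22, adjusted p = 4.46e-09). AT2G17850 read 9.75, 9.33 and 9.24 against 5.20, 6.47 and 7.39, a fall of 8.49-fold (-3.09 ± 0.33). AT4G33560 read 10.45, 9.44 and 9.32 against 6.35, 7.11 and 7.76 (-2.67 ± 0.28). In these genes the order of the mutant arrays was the same, with replicate 1 lowest and replicate 3 nearest to WT.

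AT3G29970 fell by 2.45, AT1G19530 by 2.18 and AT4G27450 by 1.86. AT4G39675 read 10.86, 11.08 and 10.56 in WT and 6.87, 9.09 and 9.88 in the mutant (-2.23 ± 0.53, adjusted p = 0.00595). Its 3 mutant arrays spanned 3 log2 units, the call was lost with only the 6 arrays in the fit (adjusted p = 0.0592), and replicate 3 lay less than 1 unit below WT. AT3G10040, which encodes the low-oxygen regulator HRA1, read 9.05, 8.27 and 8.38 against 7.26, 6.98 and 7.01, a fall of 1.48 on the log2 scale (adjusted p = 3.86e-06), and here replicate 1 was the nearest to WT.

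Of the 2 measured genes listed with fermentation and carbon, 1 went the other way. PDC2, a pyruvate decarboxylase, read 9.16, 8.98 and 8.40 in WT and 10.30, 9.79 and 10.10 in the mutant, a rise of 1.22 ± 0.16 (adjusted p = 2.04e-05). AT4G17260, the other measured gene listed with fermentation and carbon, fell by 0.58. Besides these 2, no gene listed with fermentation and carbon was analysed here.

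**Figure D3:**
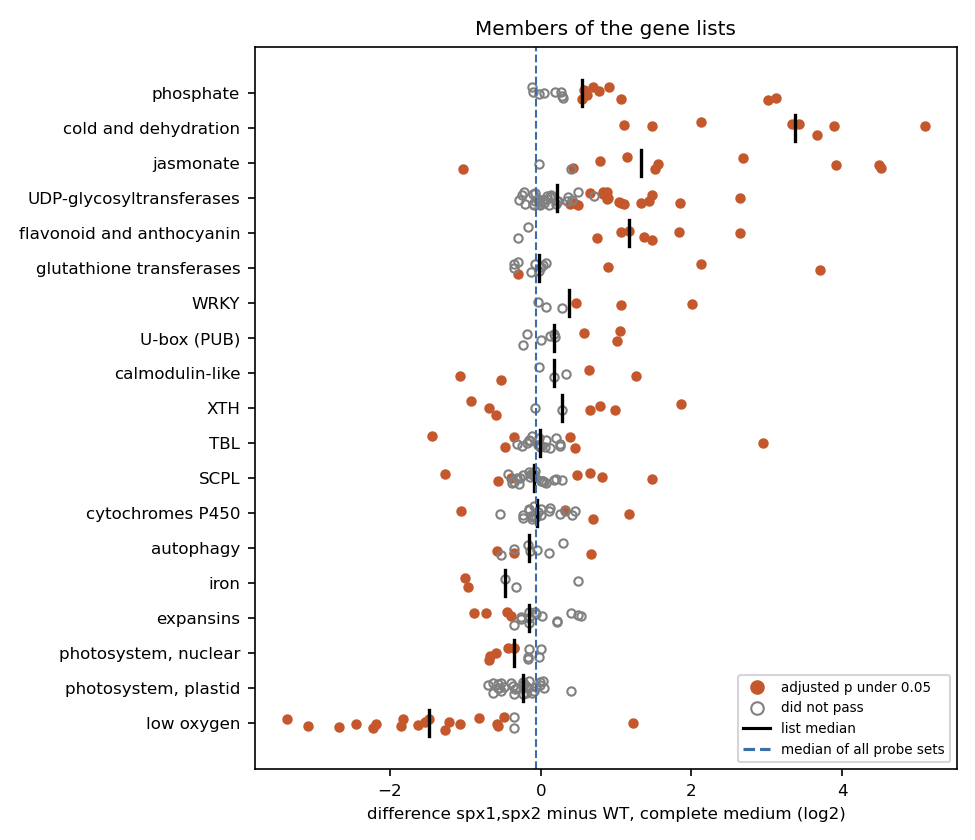
Difference between mutant and WT in complete medium (x axis, log2) for every measured member of 19 gene lists, filled where the adjusted p is under 0.05 and open otherwise. Black bars are list medians and the dashed line is the median of all probe sets, -0.06; cold (median 3.38), jasmonate (1.33) and flavonoid genes (1.17) lie to the right and low-oxygen genes (-1.48) to the left, with PDC2 as the single low-oxygen gene that rose.

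Some genes of photosynthesis fell. Of 11 measured nuclear genes of the photosystems and the NDH complex 6 fell and none rose (8.15% and 10.1% over all probe sets), with a median of -0.36. LHCB4.3, an antenna protein of photosystem II, read 9.30, 9.87 and 9.87 against 8.85, 9.12 and 9.01, a fall of 0.69 on the log2 scale (adjusted p = 0.00191). NdhL fell by 0.67, NdhN by 0.59 and PSB27 by 0.43. The count of 6 was 3 without mutant replicate 1 and 0 with only the 6 arrays in the fit, and the leaf gene SBPASE fell beside them. Its part in the result was not tested. Of 30 chloroplast-encoded photosystem probe sets none passed by limma, with a median of -0.24.

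Iron genes were lower where they passed. AT3G13610 (F6'H1), which makes the iron-mobilising coumarin scopoletin, read 10.21, 10.49 and 10.44 in WT and 9.56, 9.45 and 9.10 in the mutant, a fall of 1.01 on the log2 scale (adjusted p = 6.47e-06). AT3G12900 fell by 0.97, from 7.58, 7.34 and 7.03 to 6.88, 6.38 and 5.79. Both genes had their lowest value on mutant replicate 3, unlike most of the falls. BHLH101, PYE and AT1G47400 did not pass, at -0.47, -0.33 and 0.50, so 2 of 5 measured members fell, where 8.15% of all probe sets did. bHLH121, a regulator of iron uptake genes counted with the bHLH family, fell by 0.91 (adjusted p = 0.000546).

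Single genes of the cell wall changed strongly. TBL26, from a family of wall polysaccharide acetyltransferases, read 4.67, 4.63 and 4.73 in WT and 8.45, 7.86 and 6.58 in the mutant, a rise of 2.95 ± 0.33 or 7.73-fold, while TBL36 fell from 10.72, 10.80 and 10.89 to 8.68, 9.64 and 9.77 (-1.44 ± 0.20). Of the 22 measured members of that family 3 rose, 3 fell and 16 did not pass, shares near the 10.1% and 8.15% of all probe sets. Of 9 xyloglucan endotransglucosylases (XTH), enzymes that cut and rejoin wall xyloglucan, 4 rose and 3 fell (10.1% and 8.15% over all probe sets), led by XTH20 (1.86 ± 0.20) and XTH26 (-0.92 ± 0.18).

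Expansins loosen the wall during growth. Of 18 measured, 4 fell and none rose, beside 8.15% lower and 10.1% higher over all probe sets, with EXPA8 at -0.88 ± 0.20 and EXPB3 at -0.72 ± 0.11. Of 29 serine carboxypeptidase-like genes 4 rose and 3 fell, again shares near those of all probe sets (10.1% and 8.15%), with values from scpl28 at 1.48 ± 0.21 to scpl31 at -1.27 ± 0.23. The same holds for 24 cytochrome P450 genes, of which 3 rose and 1 fell, CYP71B26 (1.17 ± 0.14) and CYP718 (-1.06 ± 0.20) among them.

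Other families gave few calls each, beside 10.1% higher and 8.15% lower over all probe sets. The autophagy gene ATG8D rose by 0.67 and ATG8F and APG8H fell by 0.58 and 0.35, among 10 measured. Of 5 measured genes for auxin-conjugating GH3 enzymes, WES1 fell by 0.73 (adjusted p = 0.00274) and GH3.3 rose by 0.38 (adjusted p = 0.0496). The GH3.3 call was lost with the replicate number as a block. Among 14 bZIP genes BZIP61 and bZIP58 fell by 0.62 and 0.44, while BZIP60, given above, rose. NAC014 fell by 0.57. For BZIP61 and NAC014 the arrays of the genotypes overlapped (adjusted p = 0.0303 for each). None of 7 AUX/IAA genes passed by limma, the largest difference being that of IAA29 at -0.48 (adjusted p = 0.0528). SAG101 (0.52, adjusted p = 0.0517), TINY2 (0.15) and BCAT4 (0.14), the lone measured members of their lists, did not pass.

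Among the 15 largest rises, several genes belong to none of these lists. AT2G23910 read 4.43, 4.35 and 4.22 in WT and 9.61, 9.27 and 8.57 in the mutant, a rise of 4.82 ± 0.18 (adjusted p = 2.49e-12). AT1G07050 rose by 3.81 ± 0.18, AT5G62360 by 3.58 ± 0.24, AT4G22470 by 3.57 ± 0.22, AT4G16146 by 3.5 ± 0.15 and AT5G47330 by 3.18 ± 0.36. Within the 15 rises the largest adjusted p was 3.22e-06, and within the 15 falls 0.00595. For AT2G23910, AT1G10585, AT1G07050, COR27, AT5G10040 and AT3G29970 the lower group averaged under 4.40, the lowest lower quartile of any array, so the change may be larger than the values show.

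The genotype difference was then set against that in the other media, to ask whether it belonged to complete medium. Without Pi, 189 probe sets differed between the genotypes (0.831%), and after resupply 5249 (23.1%). The difference in complete medium differed from that without Pi at 2762 probe sets (12.1%) and from that after resupply at 6302 (27.7%), by the tests of those differences themselves. Of the 624 probe sets at least 2-fold higher in complete medium 587 passed the former test and 583 the latter, and of the 110 lower ones 89 and 98. These tests use the same complete-medium arrays that chose the probe sets, so the counts describe them.

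Without Pi the same probe sets hardly separated the genotypes. The median difference over the 624 was 1.44 in complete medium and -0.02 without Pi, and over the 110 it was -1.25 and -0.10. Of the 624, 14 were also called higher and 11 lower without Pi, where 0.339% of all probe sets were higher and 0.492% lower. After resupply the medians were -0.13 and 0.17, and of the 624, 65 were called higher and 142 lower, beside 11.4% and 11.7% of all probe sets.

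COR15A differed by 0.33 ± 0.27 without Pi and by -0.22 after resupply, and neither passed. AT1G10585 differed by -0.08 and 0.37, which did not pass either. Of the 8 measured cold and dehydration genes none passed without Pi. After resupply 5 of the 8 were lower in the mutant and none higher, with a median of -0.84. Over all probe sets 11.7% were lower after resupply. Of the 15 largest rises none passed without Pi, and 7 passed after resupply. Of those 7, only AT4G22470 was still higher in the mutant, by 0.74. The others were lower, among them COR15B (-0.93) and LTI30 (-0.97). AT1G07050 turned from 3.81 in complete medium to -1.80 (adjusted p = 1.01e-06). All 15 rises passed both tests of the difference between media. Of the 15 falls, 14 passed that against no Pi and 13 that against resupply. Over all probe sets 12.1% and 27.7% passed. The genes were chosen by their complete-medium difference, which both tests contain, so these counts were largely fixed in advance.

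**Figure D4:**
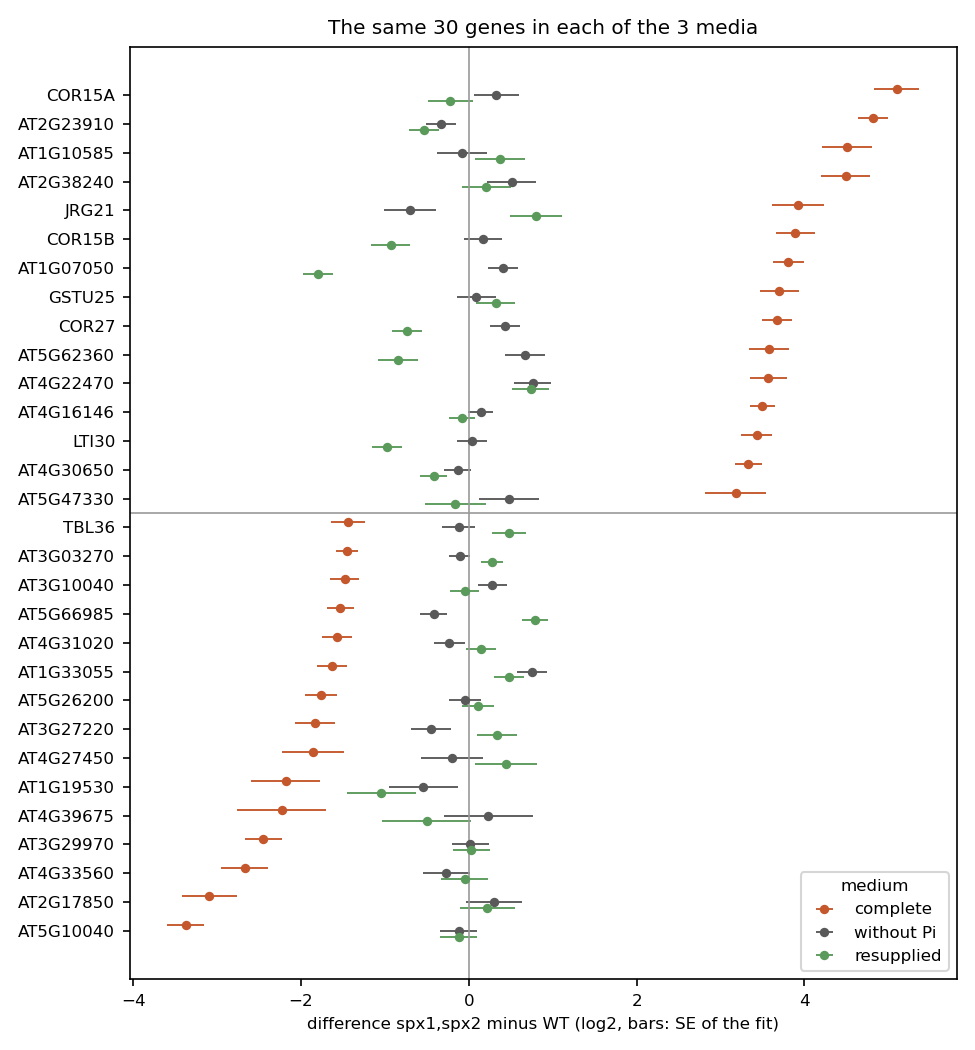
Difference between mutant and WT (x axis, log2, bars are the SE of the fit) in complete medium, without Pi and after resupply for the 15 largest rises (top) and the 15 largest falls (bottom) of complete medium. In complete medium the points run from 5.10 to -3.37, while without Pi all 30 lie between -0.70 and 0.76 and after resupply between -1.80 and 0.80.

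The Pi reporters behaved otherwise after resupply. AT5G20790 differed by 3.01 in complete medium, -0.29 without Pi and 3.49 after resupply, and AT2G04460 by 3.12, 0.13 and 4.14. For AT5G20790 the test of the complete against the resupplied difference did not pass (adjusted p = 0.12), and for AT2G04460 the resupplied one was the larger (adjusted p = 0.000721). AT5G17340 differed by 0.19 in complete medium, 0.04 without Pi and 3.36 after resupply, and OCT1 went from 0.62 to 2.52. For OCT1, WT arrays after resupply read 6.88, 6.98 and 6.70 and mutant arrays 9.45, 9.51 and 9.15.

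Levels of the other leading genes in the Pi-fed mutant can be read beside the levels in the other groups. COR15A averaged 11.05 in the Pi-fed mutant, 10.02 in WT without Pi and 12.82 in resupplied WT, against 5.95 in Pi-fed WT. UGT84A1 averaged 7.48 in the Pi-fed mutant, 5.12 in WT without Pi and 8.48 in resupplied WT, and AT1G10585 averaged 7.85, 3.06 and 8.11. COR15A in the Pi-fed mutant thus averaged between starved and resupplied WT, while UGT84A1 and AT1G10585 averaged lower in starved WT than in the Pi-fed mutant or resupplied WT. These orders are of group means and were not tested. AT2G17850 averaged 9.44 in Pi-fed WT, 6.35 in the Pi-fed mutant, 6.49 in WT without Pi and 4.43 in resupplied WT, and AT5G10040 averaged 7.25, 3.88, 3.96 and 3.31.

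**Figure D5:**
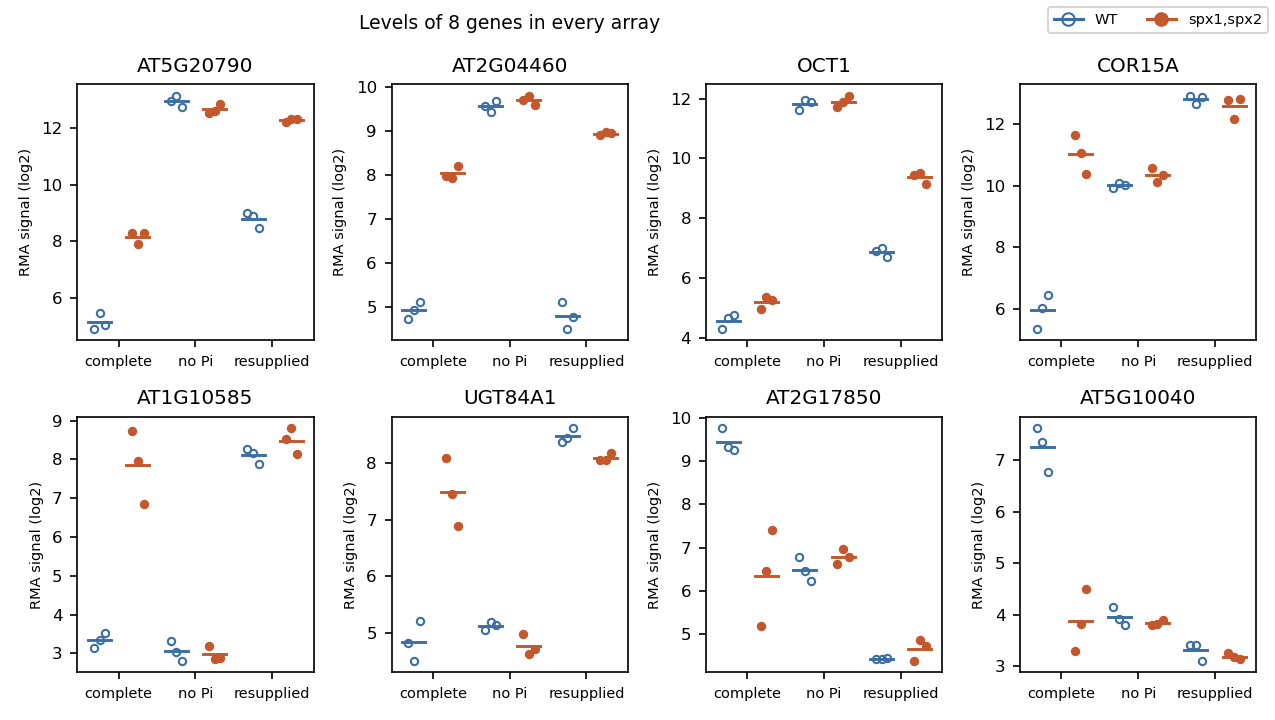
RMA signal (y axis, log2) of 8 genes on all 18 arrays, with open blue points for WT, filled orange points for the mutant and short lines for group means. AT5G20790 and AT2G04460 are raised in the Pi-fed mutant to 7.91 to 8.29 and 7.94 to 8.22, AT1G10585 and UGT84A1 are low in starved WT (means 3.06 and 5.12) and higher in the Pi-fed mutant (7.85 and 7.48), COR15A averages 11.05 in the Pi-fed mutant and 12.82 in resupplied WT, and AT2G17850 and AT5G10040 are high in Pi-fed WT.

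The change of WT from growth without Pi to resupply shares no array with the comparison in complete medium. Of the 624 probe sets higher in the Pi-fed mutant, 196 rose at least 2-fold on resupply in WT, which is 31.4% of the 624 and 17.7% of the 1105 that rose (4.86% of all). Another 55 fell, 8.81% of the 624, against 3.57% of all. Of the 110 lower probe sets, 35 fell on resupply in WT, 31.8% of the 110 and 4.31% of the 812 that fell, and 5 rose. Over all 22746 probe sets the correlation of the changes was 0.285 across probe sets, which are not independent replicates. The median change on resupply was 0.44 over the 624 and -0.62 over the 110, against -0.05 over all probe sets.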

How the data were processed

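The deposited values are log2 signals, 1 per probe set and array, which the authors made with RMA, per the submitters' processing notes. The log base was inferred from the range of the values, and no source used here gives the software or its version. RMA gives the arrays like distributions, so a change in total RNA is not measured. Arrays were grouped by their titles. Genes were named from the platform annotation and matched to RefSeq (13436 probe sets matched, 77 kept the annotation's name), 503 probe sets had several genes and 8730 are unnamed here. 64 control probe sets were left out.

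All 18 arrays were fitted with a mean per group in limma 3.58.1 on R 4.3.3 (12 residual and 6.4 prior degrees of freedom, median SD 0.163, median SE 0.131), with two-sided tests adjusted over 22746 probe sets. The spread is between these samples, and 3 arrays per group limit the precision. The procedure was tested on simulated data. The members and the 40 gene lists, of which 35 had measured members, were chosen with earlier results of these data known. CYP71 and CYP59, cyclophilins, were kept out of the P450 list. Named genes are the 15 largest rises and falls whose arrays did not overlap, up to 4 passing members per list (or the largest change where none passed), 5 genes per direction of each test between media, and all Pi genes, and other list members are named to complete a list. A gene with several probe sets is given by its brightest. Alternatives covered the arrays fitted, the replicate number and spike-in as blocks, array weights, scaling, dim probe sets, the variance prior, a minimum fold and leaving out each array. Replicate numbers did not pair the arrays: the residuals of same-numbered arrays correlated at 0.232, -0.45 and -0.236. The highest correlation, 0.598, was that of WT replicate 3 with mutant replicate 2, the complete-medium arrays with the low spike-in.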

Additional observations from a re-analysis of the deposited data

Results flagged for a closer look

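The genotype difference in complete medium differed, by limma's test of that contrast, from the difference without Pi at 2762 probe sets and from that after resupply at 6302. The genes below are those with the largest such values.

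Against the difference without Pi, the largest positive values (log2, complete minus without Pi) were 5.15 for AT2G23910, 4.77 for COR15A, 4.62 for JRG21, 4.60 for AT1G10585 and 4.33 for AT3G28220. AT3G28220 combined a rise in complete medium (2.68 ± 0.29) with a fall without Pi (-1.65, adjusted p = 0.00887). The largest negative values were -3.39 for AT2G17850, -3.25 for AT5G10040, -2.71 for psbI, -2.66 for psbK and -2.61 for AT4G01390. The photosystem II genes psbI and psbK, encoded in the chloroplast, came to this list through the medium without Pi, where the mutant was higher by 2.17 and 2.09, while in complete medium they were at -0.53 and -0.57 and did not pass. AT4G01390 was lower in complete medium (-1.41) and higher without Pi (1.19).

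Against the difference after resupply, the largest positive values (log2, complete minus resupplied) were 5.6 for AT1G07050, 5.35 for AT2G23910, 5.32 for COR15A, 4.82 for COR15B and 4.46 for AT3G01830. AT3G01830 was higher in complete medium (2.27) and lower after resupply (-2.2). The largest negative values were -3.31 for AT2G17850, -3.26 for AT5G10040, -3.17 for AT5G17340, -2.62 for AT4G33560 and -2.48 for AT3G29970. AT5G17340 came to it through the resupplied mutant, which was higher by 3.36.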

How the results depend on the processing

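The 3 arrays per group set the precision, and among single arrays left out, mutant replicate 1 lowered the count of called probe sets most. The 4146 called probe sets were 1525 with only the 6 arrays in complete medium and 1347 with a minimum fold of 1.2 in the test, and they ranged from 2370 (without mutant replicate 1) to 4988 (without mutant replicate 3) when single arrays were left out. With the minimum fold, the difference between complete medium and no Pi passed at 942 probe sets and that against resupply at 2762; leaving out single arrays gave 1687 (without mutant replicate 1) to 3555 and 5006 to 6817. The count past 2-fold ran from 585 to 951. With the replicate block, 3823 were called, and 1 named gene changed its call. Other settings gave 5547 (low spike-in arrays as a block), 3523 (those arrays left out), 3064 (array weights), 4641 (centred arrays), 4504 (quantile normalization), 4186 (trend and robust prior) and 3656 of 13014 brighter probe sets; 49.4% of calls were higher with quantile normalization and 41.7% with centring. Of the 104 named genes that passed, 68 kept call and direction in all 16 alternatives that tested them, among them 29 of the 30 largest changes; AT4G39675 was the exception. Genes that had not passed changed sign: SAL2 was at -0.02 with centred arrays and with quantile normalization, PAP20 at 0.00 with quantile normalization and 0.06 without the low spike-in arrays, and AT5G15070 at 0.04 without those. With single arrays left out, SIZ1 -0.18 to 0.08, SAL2 -0.05 to 0.11, TINY2 -0.02 to 0.31, PAP20 -0.20 to 0.01 and AT5G15070 -0.21 to 0.00 were the ranges. The phosphate count of 9 was 5 with the minimum fold. The cause of these shifts was not tested. Fits with fewer arrays also have fewer degrees of freedom, and the part of that was not tested either. The planned count of promoter motifs was not run, since no promoter sequence was used here.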
